A study of Mus musculus with 6 samples.

Results

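Leukocyte genes were followed across RNA-seq libraries of isolated mouse pancreatic islets, and the library that stood apart, Ctrl1, carried transcripts of several blood lineages at the same time. The 47 genes examined comprise 6 pan-leukocyte genes, 17 genes of mononuclear phagocytes, 4 of MHC class II, 5 of mature neutrophils, 5 of neutrophil precursors, 4 of T cells, 3 of NK and other cytotoxic cells and 3 of B cells, out of 55060 genes in the deposited table. They were chosen by name as markers of leukocyte lineages, after their FPKM had been seen to be high in Ctrl1, so that the comparison of Ctrl1 with the other libraries is given as a description without a test. In Ctrl1, transcripts of neutrophils and their precursors reached up to 27.1 times and those of B cells up to 36.3 times the next library, and the 4 T cell genes were 2.36 to 5.33 times the next library at levels below 1 FPKM. Of the 17 mononuclear phagocyte genes 14 were highest in Ctrl1, 10 of them at least 2-fold above the next library, and *Itgax*, *Cx3cr1* and *Ccr2* were not highest there.

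Islets normally hold a small population of resident macrophages that present antigen on MHC class II, whereas neutrophils and B cells belong mainly to blood, bone marrow and lymphoid organs. Neutrophils make their granule proteins in successive steps of maturation in the marrow, so that transcripts of primary granules (*Mpo*, *Elane*) mark early precursors and those of secondary granules (*Camp*, *Ltf*, *Ngp*) mark later precursors. *Cxcr2*, *Csf3r*, *Retnlg* and the S100 genes are grouped here as genes of mature neutrophils, though they need not be restricted to that stage. A lineage is therefore read best from several genes that are known for the same cell and the same stage.

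The Ctrl group comprised 3 islet samples of *Parn* f/f mice and other littermates, and the cKO group 3 samples of Ins2-Cre; *Parn* f/f mice, all 12 weeks old. Both kinds of mice can carry the floxed exon of *Parn*, which encodes a poly(A)-specific ribonuclease, and Cre is expressed from the *Ins2* promoter and so acts in β cells. The islets were released with collagenase and picked by hand, so that α, δ and other cells and what adhered to the islets remained in the samples. In bulk RNA of this kind, fewer cells of a type and less RNA per cell cannot be told apart.

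The libraries were of similar depth, with 16289408 to 17944775 reads on genes. FPKM are reads per gene divided by gene length and a library size, which was 15731223 to 18085944 here. That size was below the reads on genes in the Ctrl libraries and above them in the cKO libraries. It is thus not a plain total of the reads on genes, and the sources used here do not say how it was set. A read on a gene of 1 kb was worth 0.0553 to 0.0636 FPKM. The targeted gene *Parn* was at 6.64, 8.34 and 7.38 FPKM in Ctrl1, Ctrl2 and Ctrl3 and at 4.97, 4.61 and 6.15 FPKM in cKO1, cKO2 and cKO3, with no overlap. Ctrl1 was the library that stood apart: 909 of the 21211 genes with a mean of at least 0.1 FPKM (4.29%) were at least 2-fold above every other library there, against 128 to 221 genes for each of the others. Where every other library was at 0, 3 reads there took its place in this count. *Xist* reached 20.4 FPKM or more in every library but cKO3 (0.139 FPKM), and the Y-linked *Eif2s3y* was at 0 in Ctrl3 and cKO2 and at 5.95, 5.24, 1.41 and 14.1 FPKM in Ctrl1, Ctrl2, cKO1 and cKO3, so that 3 libraries held transcripts of both sexes. Neither marker singled out Ctrl1.

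Of the 47 leukocyte genes, 43 were highest in Ctrl1, whereas 22.1% of all tested genes were. At least 2-fold above the next library were 31 (66.0%), beside the 4.29% of all genes, and 10 were at least 10-fold above it. This is the pattern on which the genes were chosen, and the shares are not evidence for it. The exceptions were *Itgax*, *Cx3cr1*, *Ccr2* and *Ncr1*. The 47 genes together took 0.366% of the reads on genes in Ctrl1, 0.117% and 0.115% in cKO2 and cKO3, and 0.0581% to 0.0687% in Ctrl2, Ctrl3 and cKO1. *S100a8*, *S100a9* and *Lyz2* made up 44.0% of the summed FPKM of the genes in Ctrl1 and 3.31% to 12.6% elsewhere, and without them the sum in Ctrl1 was still 2.33 times that of the next library.

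**Figure D1:**
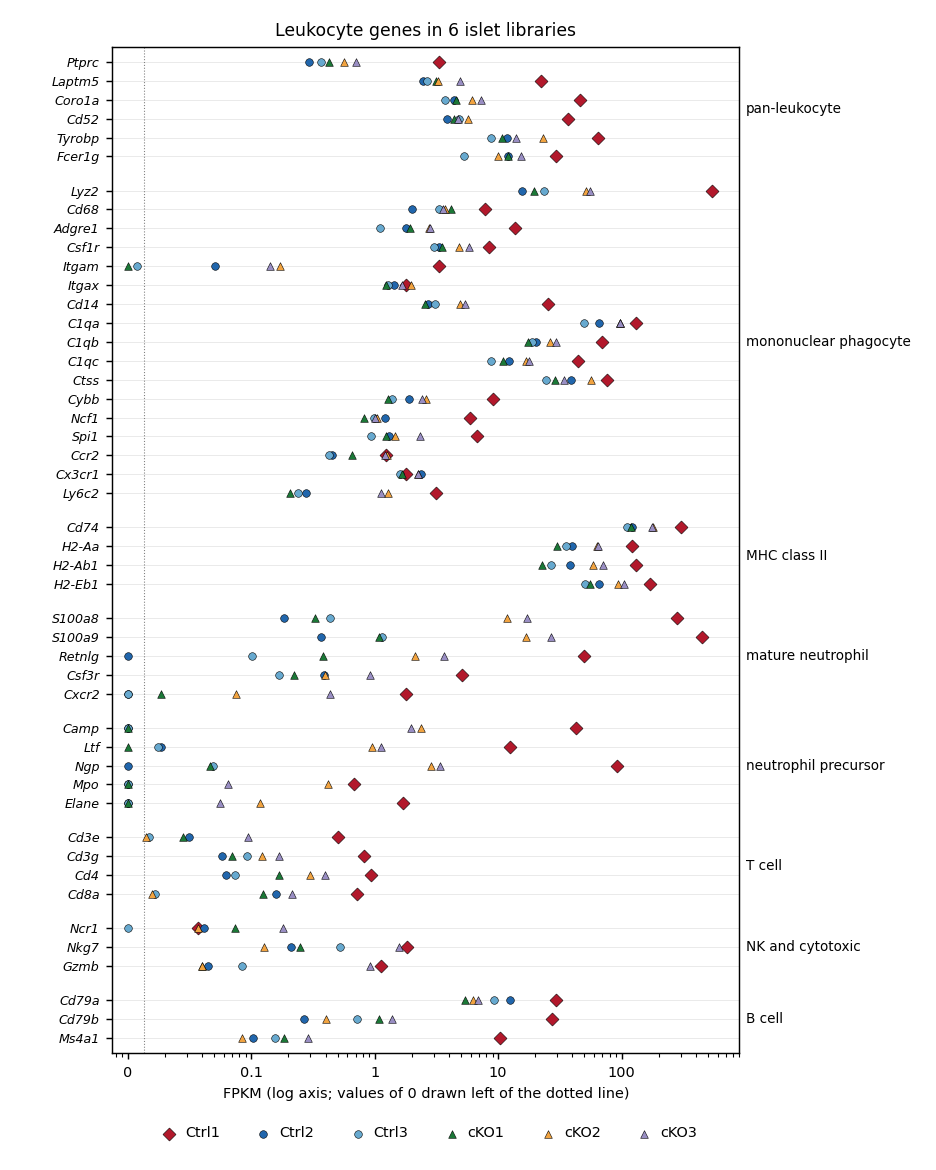
FPKM (log axis) of the 47 leukocyte genes in each of the 6 libraries, grouped by cell type. Diamonds are Ctrl1, circles Ctrl2 and Ctrl3, and triangles cKO1 to cKO3; values of 0 are drawn left of the dotted line. Ctrl1 lies to the right of all other libraries for 43 genes, and cKO2 and cKO3 lie next to it for most.

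The pan-leukocyte genes were raised together in Ctrl1, though by unequal amounts. *Ptprc*, which encodes the CD45 phosphatase of all nucleated blood cells, measured 3.31, 0.295 and 0.364 FPKM in Ctrl1, Ctrl2 and Ctrl3 and 0.429, 0.562 and 0.710 FPKM in cKO1, cKO2 and cKO3. *Coro1a*, an actin regulator of blood cells, measured 46, 4.41 and 3.71 FPKM in Ctrl1, Ctrl2 and Ctrl3 and 4.52, 6.18 and 7.23 FPKM in cKO1, cKO2 and cKO3. In both, Ctrl1 was far above the rest, cKO3 was next and Ctrl2 and Ctrl3 were lowest. The lysosomal protein gene *Laptm5* and the surface glycoprotein gene *Cd52* were at 22.1 and 36.5 FPKM in Ctrl1 and at 2.48 to 4.89 and 3.86 to 5.72 FPKM in the other libraries. The 2 signalling adaptors of myeloid and NK cells differed less. *Tyrobp* measured 65.0, 11.8 and 8.83 FPKM in Ctrl1, Ctrl2 and Ctrl3 and 10.8, 22.9 and 13.8 FPKM in cKO1, cKO2 and cKO3, and *Fcer1g*, the γ chain of Fc receptors, 29.3, 12 and 5.30 FPKM in Ctrl1, Ctrl2 and Ctrl3 and 11.9, 10.003 and 15.4 FPKM in cKO1, cKO2 and cKO3. The ratio of Ctrl1 to the next library was 6.38 for *Cd52*, 6.36 for *Coro1a*, 4.67 for *Ptprc*, 4.52 for *Laptm5*, 2.83 for *Tyrobp* and 1.91 for *Fcer1g*.

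Genes of mature neutrophils differed widely between libraries. *S100a8* and *S100a9* encode the subunits of calprotectin, the most abundant cytosolic protein of neutrophils, and lie on chromosome 3 at chr3:90668978-90670035 and chr3:90692632-90695721 (GRCm38). *S100a8* measured 281, 0.183 and 0.433 FPKM in Ctrl1, Ctrl2 and Ctrl3 and 0.328, 11.8 and 17.0 FPKM in cKO1, cKO2 and cKO3. *S100a9* measured 451, 0.365 and 1.15 FPKM in Ctrl1, Ctrl2 and Ctrl3 and 1.09, 16.9 and 26.6 FPKM in cKO1, cKO2 and cKO3. Their order was Ctrl1, then cKO3 and cKO2, and then Ctrl2, Ctrl3 and cKO1, where 2 to 10 reads per gene and library were counted. Ctrl1 was 17.0 times cKO3 for *S100a9*, with an interval of 14.9 to 19.3, the exact 95% interval of a ratio of reads, which like all intervals here covers counting error only. *Retnlg*, a resistin-like protein of neutrophils, measured 49.2, 0 and 0.101 FPKM in Ctrl1, Ctrl2 and Ctrl3 and 0.384, 2.13 and 3.64 FPKM in cKO1, cKO2 and cKO3. *Csf3r*, the receptor of G-CSF, was at 5.11 FPKM in Ctrl1 and 0.167 to 0.919 FPKM elsewhere. *Cxcr2*, the chemokine receptor by which mature neutrophils leave the marrow, was listed at 0 in Ctrl2 and Ctrl3, rested on 1, 4 and 24 reads in cKO1, cKO2 and cKO3, and was at 1.79 FPKM in Ctrl1. All 5 genes were thus highest in Ctrl1, and all 5 were higher in cKO2 and in cKO3 than in Ctrl2, Ctrl3 and cKO1, although for *Csf3r* cKO2 (0.398 FPKM) and Ctrl2 (0.388 FPKM) were close.

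Transcripts of neutrophil precursors accompanied them. *Camp*, the cathelicidin precursor, *Ngp*, the neutrophilic granule protein, and *Ltf*, the iron-binding lactoferrin, are secondary granule genes that lie on chromosome 9, at chr9:109847379-109849617, chr9:110419747-110423012 and chr9:111019271-111042767. *Ngp* measured 91.9, 0 and 0.0492 FPKM in Ctrl1, Ctrl2 and Ctrl3 and 0.0466, 2.87 and 3.39 FPKM in cKO1, cKO2 and cKO3. *Camp* was listed at 0 in Ctrl2, Ctrl3 and cKO1 and measured 43.0, 2.35 and 1.97 FPKM in Ctrl1, cKO2 and cKO3. *Ltf* measured 12.5 FPKM in Ctrl1, 0.950 and 1.12 FPKM in cKO2 and cKO3, and rested on at most 1 read in each of the others. The primary granule genes were lower throughout. *Elane*, neutrophil elastase, was at 1.69 FPKM (29 reads) in Ctrl1, had 2 reads in cKO2 and 1 in cKO3, and was listed at 0 in the others, and its ratio of 14.4 to cKO2 has an interval of 3.66 to 125. *Mpo*, myeloperoxidase, was at 0.686 FPKM in Ctrl1 and 0.420 FPKM in cKO2, a ratio of 1.63 with an interval of 0.970 to 2.80, which includes equal levels. Over the 10 neutrophil genes of both stages, 11788 reads were counted in Ctrl1, 522 in cKO2 and 765 in cKO3, against 28 to 34 in Ctrl2, Ctrl3 and cKO1. All 10 values were higher in both cKO2 and cKO3 than in those 3 libraries, and 7 of them rested on at least 10 reads in both, which those of *Cxcr2*, *Mpo* and *Elane* did not.

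The proportions of 5 neutrophil transcripts to *S100a9* differed much less between Ctrl1, cKO2 and cKO3 than their levels did. The FPKM of *S100a8* was 0.624, 0.698 and 0.641 times that of *S100a9* in Ctrl1, cKO2 and cKO3. *Retnlg* was at 0.109, 0.127 and 0.137 times *S100a9*, *Camp* at 0.0954, 0.140 and 0.0741 times, and *Ngp* at 0.204, 0.170 and 0.128 times. *Ltf* was at 0.0277, 0.0564 and 0.0422 times. Within each of these 5 ratios the highest of the 3 values was at most 2.04 times the lowest, while *S100a9* itself ranged from 16.9 to 451 FPKM. *Csf3r*, *Cxcr2*, *Mpo* and *Elane* are not among the 5, and the likeness does not extend to all neutrophil genes. *Csf3r* was at 5.11, 0.398 and 0.919 FPKM in Ctrl1, cKO2 and cKO3. *Mpo* was at 0.686, 0.420 and 0.0646 FPKM and fell far less than *S100a9* from Ctrl1 to cKO2. The ratio of the B cell gene *Ms4a1* to *S100a9* was 0.0231 in Ctrl1 and 0.00496 and 0.0108 in cKO2 and cKO3, and that of *Lyz2* to *S100a9* was 1.20, 3.05 and 2.10.

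The stretches upstream of 3 neutrophil genes are shown here for the C/EBP pattern TTGCNNAA, since C/EBP factors are known to drive granule genes. The 3 genes were high in the same libraries and were picked because they hold the pattern. The sequences are those of RefSeq on GRCm38.p6, 250 bases up to the annotated start, read 5′ to 3′ in the direction of the gene, and the capitals mark each match on either strand. They are chr3:90695722-90695971 on the minus strand for *S100a9*, chr9:110419558-110419807 on the plus strand for *Ngp* and chr9:111019042-111019291 on the plus strand for *Ltf*.
S100a9: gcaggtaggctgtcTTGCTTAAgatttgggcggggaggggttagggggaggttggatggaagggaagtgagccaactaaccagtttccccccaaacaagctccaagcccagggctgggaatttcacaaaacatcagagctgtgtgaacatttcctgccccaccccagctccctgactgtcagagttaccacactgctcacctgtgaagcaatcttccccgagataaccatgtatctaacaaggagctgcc
Ngp: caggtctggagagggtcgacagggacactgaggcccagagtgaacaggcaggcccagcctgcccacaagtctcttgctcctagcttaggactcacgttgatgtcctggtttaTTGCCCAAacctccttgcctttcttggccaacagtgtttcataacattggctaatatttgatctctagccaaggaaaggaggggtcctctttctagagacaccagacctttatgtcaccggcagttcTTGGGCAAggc
Ltf: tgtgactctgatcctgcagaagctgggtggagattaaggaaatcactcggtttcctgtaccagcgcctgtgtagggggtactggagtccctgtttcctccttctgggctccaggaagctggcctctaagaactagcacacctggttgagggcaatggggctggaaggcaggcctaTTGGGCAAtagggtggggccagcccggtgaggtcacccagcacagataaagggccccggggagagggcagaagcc
*Ngp* held 2 matches, and *S100a9* and *Ltf* 1 each. Among the 35 genes of the 47 with a promoter entry, 6 held the pattern in the 300 bases around the start, namely *S100a9*, *Ngp*, *Ltf*, *Retnlg*, *Cd68* and *Cd8a*. These were 6 of their 39 entries, beside 3547 of all 32851 promoter entries (10.8%). The neutrophil genes *S100a8*, *Csf3r*, *Cxcr2*, *Camp*, *Mpo* and *Elane* had an entry without the pattern. The ETS pattern GAGGAAGT that PU.1 can bind was held by 6 others (*S100a8*, *Ctss*, *C1qc*, *Elane*, *Mpo* and *Ly6c2*), in 7 of the 39 entries, beside 3.2% of all entries. No gene held both. A match is a description of the letters and not a binding site.

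**Figure D2:**
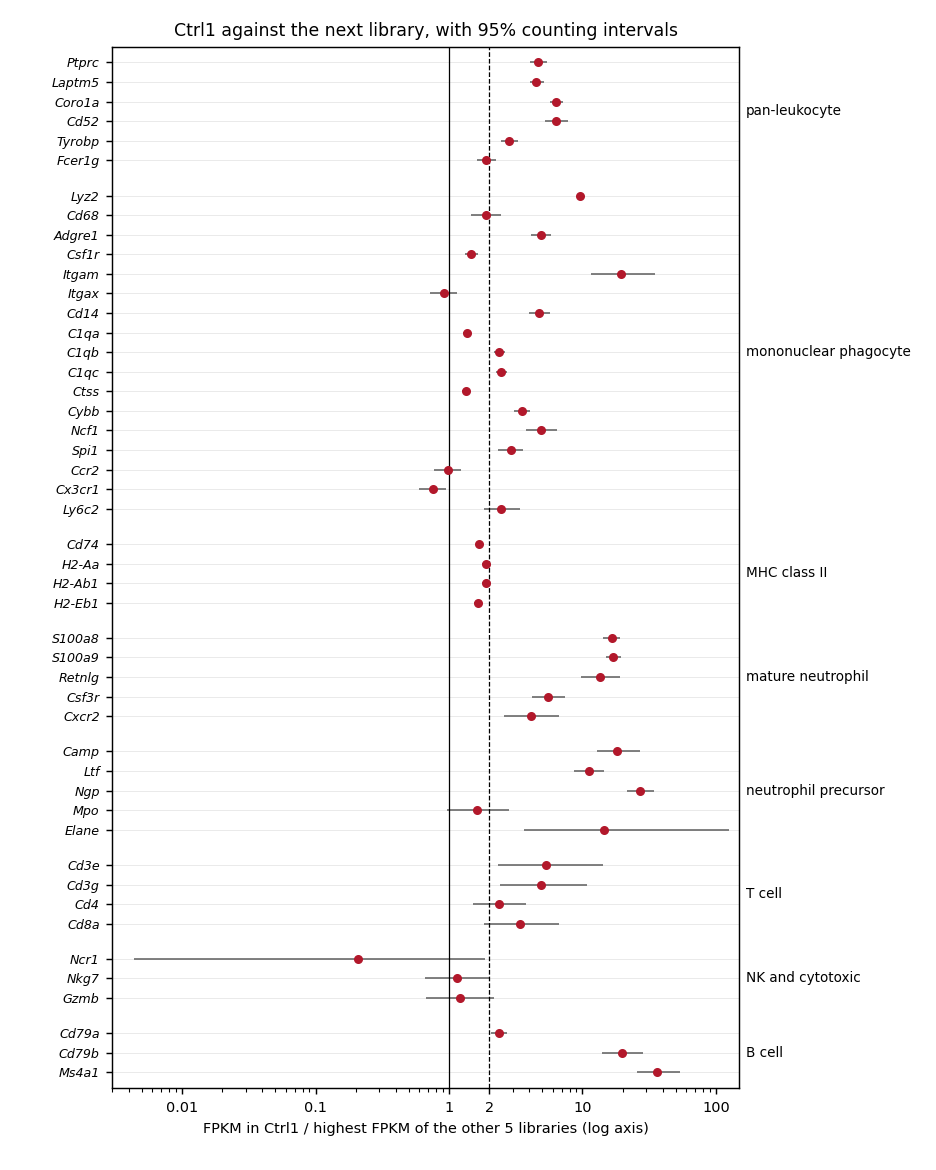
Ratio of the FPKM in Ctrl1 to the highest FPKM of the other 5 libraries (log axis) for each of the 47 genes, with exact 95% intervals that cover counting error only. The solid line is a ratio of 1 and the dashed line a ratio of 2. Ratios range from 0.752 for *Cx3cr1* to 36.3 for *Ms4a1* among the genes with a mean of at least 0.1 FPKM, and the wide intervals of *Elane* and *Ncr1* rest on a few reads.

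Mononuclear phagocyte genes were raised in Ctrl1 to very unequal degrees. *Lyz2*, the lysozyme of macrophages, monocytes and neutrophils, measured 539, 15.6 and 23.3 FPKM in Ctrl1, Ctrl2 and Ctrl3 and 19.5, 51.4 and 56.0 FPKM in cKO1, cKO2 and cKO3. *Itgam*, the integrin subunit CD11b, measured 3.33, 0.0506 and 0.0120 FPKM in Ctrl1, Ctrl2 and Ctrl3 and 0, 0.172 and 0.143 FPKM in cKO1, cKO2 and cKO3. Ctrl1 exceeded the next library 9.63-fold for *Lyz2* and 19.4-fold for *Itgam*, and cKO2 and cKO3 followed. The value of *Itgam* is uncertain, because 68.7% of its exon bases are shared on the same strand with the annotated gene Gm49368, which was listed at 0 in every library. *Adgre1*, an adhesion-type receptor that marks mouse macrophages, measured 13.7, 1.79 and 1.11 FPKM in Ctrl1, Ctrl2 and Ctrl3 and 1.92, 2.74 and 2.80 FPKM in cKO1, cKO2 and cKO3. *Cd14*, the lipopolysaccharide co-receptor, was at 25.3 FPKM in Ctrl1 and 2.57 to 5.35 FPKM elsewhere. *Cybb* and *Ncf1*, parts of the phagocyte NADPH oxidase, were at 9.10 and 5.96 FPKM in Ctrl1, with 1.28 to 2.58 and 0.824 to 1.21 FPKM elsewhere. *Lyz2*, *Itgam*, *Cd14*, *Cybb* and *Ncf1* are also used by neutrophils or blood monocytes, and *Adgre1* need not be restricted to macrophages of tissue. *Spi1*, which encodes the myeloid transcription factor PU.1, was at 6.76 FPKM against 0.937 to 2.34 FPKM, and *Ly6c2*, a marker of inflammatory monocytes, measured 3.16, 0.278 and 0.241 FPKM in Ctrl1, Ctrl2 and Ctrl3 and 0.208, 1.28 and 1.13 FPKM in cKO1, cKO2 and cKO3.

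Other genes of this group, which are described here because their ratios were below 2, included the 3 that were not highest in Ctrl1. *Itgax*, the integrin subunit CD11c, measured 1.79, 1.44 and 1.29 FPKM in Ctrl1, Ctrl2 and Ctrl3 and 1.23, 1.96 and 1.66 FPKM in cKO1, cKO2 and cKO3. *Cx3cr1*, the fractalkine receptor, measured 1.79, 2.38 and 1.60 FPKM in Ctrl1, Ctrl2 and Ctrl3 and 1.66, 2.26 and 2.26 FPKM in cKO1, cKO2 and cKO3. The highest library was 1.60 times the lowest for *Itgax* and 1.49 times for *Cx3cr1*, with Ctrl1 inside that range, and the ratio of Ctrl1 to the next library was 0.911 (interval 0.725 to 1.14) for *Itgax* and 0.752 (0.597 to 0.946) for *Cx3cr1*. *Ccr2*, the receptor by which monocytes leave the marrow, measured 1.24, 0.451 and 0.427 FPKM in Ctrl1, Ctrl2 and Ctrl3 and 0.657, 1.27 and 1.20 FPKM in cKO1, cKO2 and cKO3, with Ctrl1, cKO2 and cKO3 alike and the other 3 libraries lower. *Csf1r*, the receptor of the macrophage growth factor, was at 8.48 FPKM in Ctrl1 and 3.01 to 5.77 FPKM elsewhere. *Ctss*, a lysosomal protease, and *Cd68*, a lysosomal membrane protein, were 1.34 and 1.89 times the next library in Ctrl1.

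The 3 chains of complement C1q, which macrophages make, differed in their ratios. *C1qa* measured 131, 66.1 and 49.7 FPKM in Ctrl1, Ctrl2 and Ctrl3 and 96.4, 96.2 and 96.4 FPKM in cKO1, cKO2 and cKO3. *C1qb* measured 69.6, 20.4 and 18.7 FPKM in Ctrl1, Ctrl2 and Ctrl3 and 17.5, 26.4 and 29.3 FPKM in cKO1, cKO2 and cKO3. *C1qc* measured 44.0, 12.2 and 8.72 FPKM in Ctrl1, Ctrl2 and Ctrl3 and 10.8, 16.8 and 17.8 FPKM in cKO1, cKO2 and cKO3. The ratio of *C1qb* to *C1qc* stayed between 1.57 and 2.14 in the 6 libraries, whereas that of *C1qa* to *C1qb* ranged from 1.88 in Ctrl1 to 5.52 in cKO1. The 3 cKO values of *C1qa* were almost equal and all above Ctrl2 and Ctrl3, and Ctrl1 was above them.

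The MHC class II genes were present in every library and were raised in Ctrl1, cKO2 and cKO3. *Cd74*, the invariant chain that escorts class II molecules, measured 303, 121 and 110 FPKM in Ctrl1, Ctrl2 and Ctrl3 and 119, 181 and 176 FPKM in cKO1, cKO2 and cKO3. *H2-Aa*, the α chain of I-A, measured 121, 39.5 and 35.6 FPKM in Ctrl1, Ctrl2 and Ctrl3 and 30.0, 63.6 and 64.2 FPKM in cKO1, cKO2 and cKO3. *H2-Ab1*, its β chain, measured 132, 38.2 and 26.7 FPKM in Ctrl1, Ctrl2 and Ctrl3 and 22.7, 59.0 and 70.1 FPKM in cKO1, cKO2 and cKO3. In each of these genes Ctrl1 was highest, cKO2 and cKO3 were next and Ctrl2, Ctrl3 and cKO1 were lowest, without overlap between the 3 tiers. *H2-Eb1*, the β chain of I-E, kept the same tiers at 171, 66.1 and 50.9 FPKM in Ctrl1, Ctrl2 and Ctrl3 and 55.8, 92.9 and 104 FPKM in cKO1, cKO2 and cKO3. The ratio of Ctrl1 to the next library was 1.64 to 1.88, and none of the 4 genes reached 2-fold. The ratio of *H2-Aa* to *H2-Ab1* was 0.917 in Ctrl1 and 0.916 to 1.34 in the others.

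The upstream sequences of *H2-Aa* and *H2-Eb1* are shown because these genes kept the same order of libraries and class II promoters share an element, the Y box. The windows are chr17:34287824-34288073 on the minus strand and chr17:34305617-34305866 on the plus strand (RefSeq, GRCm38.p6), with the Y box CTGATTGG in capitals.
H2-Aa: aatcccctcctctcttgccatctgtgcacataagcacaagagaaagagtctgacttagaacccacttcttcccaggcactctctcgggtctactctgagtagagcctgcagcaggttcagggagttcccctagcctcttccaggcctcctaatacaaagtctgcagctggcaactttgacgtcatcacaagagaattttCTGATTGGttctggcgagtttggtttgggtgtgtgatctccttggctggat
H2-Eb1: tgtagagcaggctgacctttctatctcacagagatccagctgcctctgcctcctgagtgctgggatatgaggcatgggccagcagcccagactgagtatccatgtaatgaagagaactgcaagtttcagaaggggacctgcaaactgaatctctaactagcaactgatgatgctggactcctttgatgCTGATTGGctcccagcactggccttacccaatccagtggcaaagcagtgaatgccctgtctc
The first base of the match lies at position -51 of *H2-Aa* and -62 of *H2-Eb1*, counted from the annotated start. On either strand, CTGATTGG occurred in 4.1% of all promoter entries. In the present set it occurred in 2 of the 39 entries, which cover 35 genes, and both were of class II genes. *H2-Ab1* and *Cd74* had no entry to search.

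**Figure D3:**
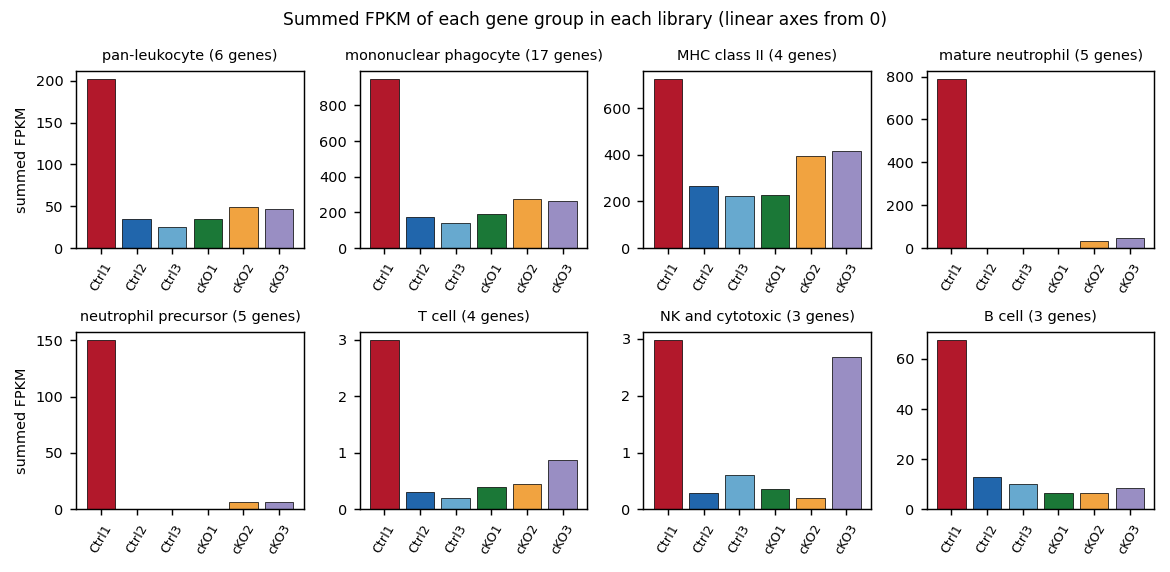
Summed FPKM of each of the 8 gene groups in each library, on linear axes from 0 that differ between panels. The neutrophil groups are near 0 in Ctrl2, Ctrl3 and cKO1, the class II genes are present in all libraries, and the T cell and cytotoxic groups stay near or below 3 FPKM in all.

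B cell genes separated Ctrl1 from all other libraries, including cKO2 and cKO3. *Ms4a1*, which encodes CD20, measured 10.4, 0.103 and 0.155 FPKM in Ctrl1, Ctrl2 and Ctrl3 and 0.184, 0.0837 and 0.286 FPKM in cKO1, cKO2 and cKO3. *Cd79b*, a signalling chain of the B cell receptor, measured 27.4, 0.267 and 0.714 FPKM in Ctrl1, Ctrl2 and Ctrl3 and 1.07, 0.402 and 1.39 FPKM in cKO1, cKO2 and cKO3. Ctrl1 exceeded cKO3 by 36.3 times (interval 25.6 to 53.4) for *Ms4a1* and 19.7 times (14.1 to 28.3) for *Cd79b*, and the other 5 libraries overlapped between genotypes. Unlike the neutrophil genes, neither was higher in both cKO2 and cKO3 than in Ctrl2, Ctrl3 and cKO1. *Cd79a*, which encodes the partner chain of *Cd79b*, measured 29.6, 12.5 and 9.28 FPKM in Ctrl1, Ctrl2 and Ctrl3 and 5.43, 6.24 and 6.91 FPKM in cKO1, cKO2 and cKO3. *Cd79a* was at 1.08 times *Cd79b* in Ctrl1 and at 4.97 to 46.8 times in the others, so its level outside Ctrl1 was not matched by the partner chain.

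T cell genes were also highest in Ctrl1 but at a low level. *Cd3e*, *Cd3g*, *Cd4* and *Cd8a*, which encode chains of the T cell receptor complex and its co-receptors, were at 0.506, 0.824, 0.938 and 0.725 FPKM in Ctrl1, on 36 to 66 reads per gene. Their ratios to the next library, cKO3 in each case, were 5.33, 4.87, 2.36 and 3.41. The interval of *Cd4* reaches down to 1.5 and that of *Cd8a* to 1.84, since cKO3 held 29 and 14 reads. In the remaining libraries the 4 genes lay between 0.0141 and 0.30 FPKM.

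Cytotoxic genes followed another order, in which Ctrl1 and cKO3 were alike. *Nkg7*, a granule protein of NK and cytotoxic T cells, measured 1.82, 0.209 and 0.526 FPKM in Ctrl1, Ctrl2 and Ctrl3 and 0.249, 0.126 and 1.57 FPKM in cKO1, cKO2 and cKO3. *Gzmb*, granzyme B, measured 1.12, 0.0443 and 0.0837 FPKM in Ctrl1, Ctrl2 and Ctrl3 and 0.0396, 0.0401 and 0.924 FPKM in cKO1, cKO2 and cKO3. Each gene was thus above 0.9 FPKM in Ctrl1 and cKO3 and at 0.526 FPKM or lower in the other 4 libraries, and the ratio of Ctrl1 to cKO3 was 1.16 (interval 0.657 to 2.04) and 1.21 (0.676 to 2.18). *Ncr1*, the NKp46 receptor of NK cells, rested on 5 reads in cKO3 and at most 2 elsewhere, and with a mean of 0.0617 FPKM it was the only gene of the 47 that was not tested.

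In several groups, cKO2 and cKO3 exceeded Ctrl2, Ctrl3 and cKO1. Both did so in 32 of the 47 genes (68.1%), beside 12.9% of all tested genes, and 28 of the 32 rested on at least 10 reads in both. Ctrl2, Ctrl3 and cKO1 held the lowest value of 43 genes. The counts were 10 of 10 for neutrophils and their precursors, 4 of 4 for MHC class II, 12 of 17 for mononuclear phagocytes, 4 of 6 for pan-leukocyte genes, 2 of 4 for T cells, and 0 of 3 each for cytotoxic and B cells. The mean of cKO2 and cKO3 was 45.8 times that of Ctrl2, Ctrl3 and cKO1 for *S100a8*, 25.0 times for *S100a9*, 2.76 times for *Lyz2*, 1.75 times for *Ptprc* and 1.25 times for *Ms4a1*. The order was noticed in these values, and the libraries were not tested as groups.

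The comparison of genotypes shows what Ctrl1 contributes to the Ctrl mean. Because the genes were chosen after being seen high in Ctrl1, that choice favours lower means in cKO. Of the 46 leukocyte genes tested, 41 had a lower and 5 a higher mean log2(FPKM + 1) in cKO, and the median difference, cKO minus Ctrl, was -0.25, against -0.0145 over all genes tested. With limma and Benjamini-Hochberg adjustment over all 21211 genes, no gene had an adjusted p under 0.05. Before adjustment, 1 of the 46 genes was lower in cKO at the 0.05 level, *Cd79a*, and none was higher, beside 3.07% and 4.33% of all genes. The voom fit on reads also called none of the 46 higher and 1 lower. *Cd79a* was also the only one of them whose groups did not overlap, being lower in every cKO library, beside 6.03% of all genes without overlap in that direction and 7.11% in the other. Its FPKM was 17.1 ± 10.9 in Ctrl and 6.19 ± 0.739 in cKO (SD, n = 3 each), and the difference of -1.18 ± 0.38 (SE) on the log2(FPKM + 1) scale had a limma adjusted p of 0.572.

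Without Ctrl1 the direction turned for most leukocyte genes. The genes had been seen high in Ctrl1 when they were chosen, so an upward shift on leaving it out was built into that choice. The counts below are a description and carry no test of the set. The median difference was then 0.38 and 44 of the 46 genes had a higher mean in cKO, while the median over all genes was -0.00074. Among the 46 are *Itgam*, *Mpo*, *Elane* and *Cd3e*, whose mean over the 5 libraries left is below the filter of 0.1 FPKM, and without these 4 the median was 0.40 and 40 of 42 genes had a higher mean in cKO. Before adjustment, 5 genes (10.9%) were higher at the 0.05 level, beside 5.9% of all genes, and 1 was lower, beside 5.53%. None passed an adjusted p of 0.05 in limma, and in all 1 of the 21211 genes did. The 5 genes were *C1qa*, *Adgre1*, *Ccr2*, *Retnlg* and *Cd4*. *C1qa* differed by 0.35 ± 0.33 (SE) with all libraries and by 0.74 ± 0.13 without Ctrl1, with limma adjusted p of 0.839 and 0.210. *Adgre1* differed by -0.35 ± 0.70 and by 0.51 ± 0.20, with limma adjusted p of 0.933 and 0.431. *Ccr2* went from 0.28 ± 0.22 to 0.49 ± 0.17 and *Retnlg* from -0.49 ± 1.52 to 1.37 ± 0.52. *Cd4* went from -0.020 ± 0.25 to 0.27 ± 0.10. *Cd79a* kept its direction, with -0.72 ± 0.16 and a limma adjusted p of 0.258. By group, the median difference with and without Ctrl1 was -0.42 and 0.42 for pan-leukocyte genes, -0.18 and 0.39 for mononuclear phagocytes, -0.092 and 0.46 for MHC class II, -0.28 and 1.37 for mature neutrophils, -0.58 and 0.66 for precursors, -0.17 and 0.050 for T cells, -0.12 and 0.22 for the 2 tested cytotoxic genes and -1.05 and 0.066 for B cells. All 8 medians changed sign. The 2 remaining Ctrl libraries, which are among the 3 lowest, then carry the Ctrl mean alone.

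**Figure D4:**
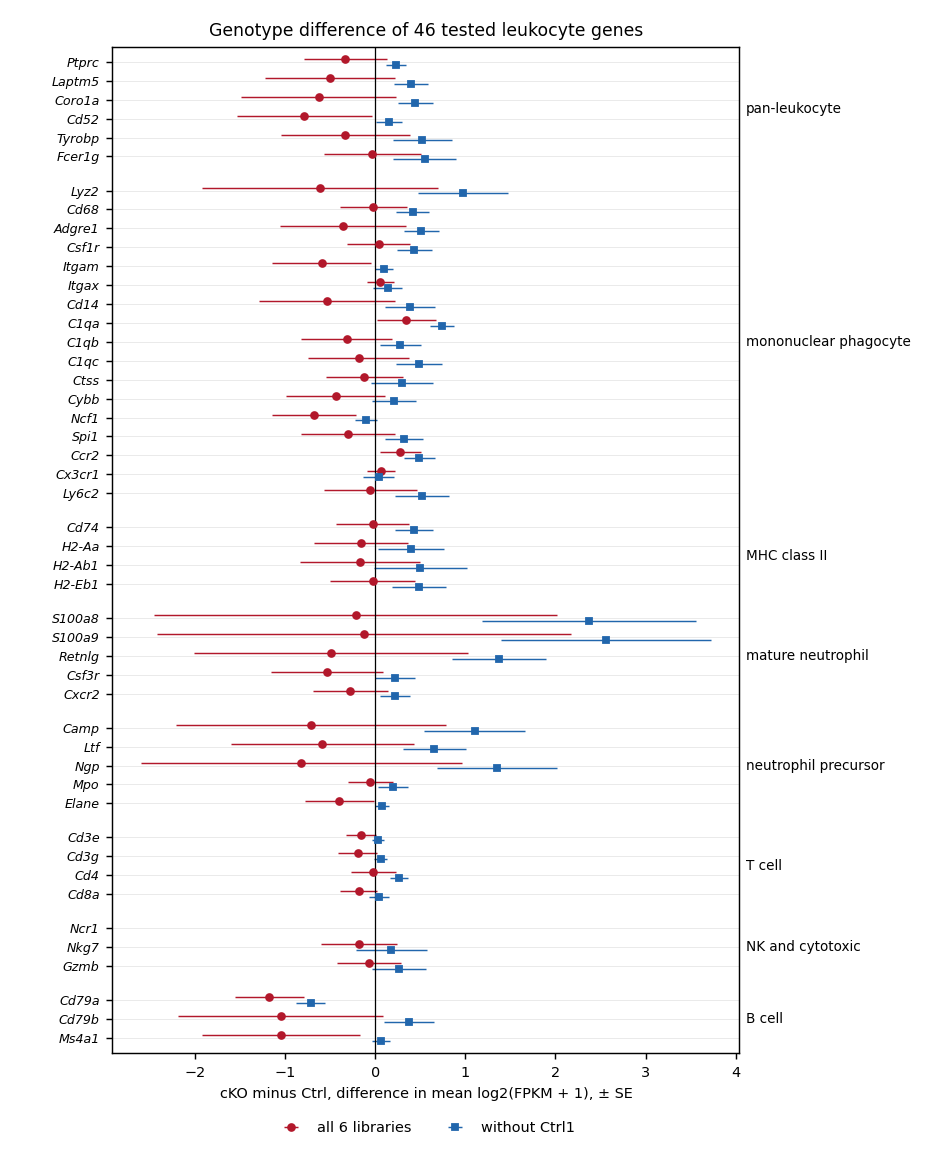
Difference of the mean log2(FPKM + 1), cKO minus Ctrl, of the 46 tested leukocyte genes with all 6 libraries (circles) and without Ctrl1 (squares), with standard errors from limma. With all libraries 41 genes lie left of 0, and without Ctrl1 44 lie right of it, while *Cd79a* stays on the left.

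A further 295 genes in 19 lists, none of them among the 47, cover other leukocyte genes and the other cells that islet samples can hold. Of 26 Fc receptor and myeloid signalling genes, 26 were highest in Ctrl1 and 22 at least 2-fold above the next library. Among them were *Cyba*, an oxidase subunit (31.9 FPKM against 3.89 to 9.58), *Arhgdib*, a signalling protein of blood cells (25.6 against 1.48 to 4.11), and *Fcgr3*, an IgG receptor (19.2 against 1.11 to 3.95). Of 17 further neutrophil genes, 15 reached 2-fold, among them *Lcn2*, lipocalin 2 (12.2 against 0.0687 to 1.5). *Hp*, haptoglobin (14.6 against 0.142 to 3.92), *Wfdc21* (10.4 against 0 to 3.52) and *Anxa1*, annexin A1 (9.21 against 0.902 to 3.07), also did. *Hp* is a liver gene as well, and Ctrl1 and Ctrl2 held more transcripts of *Alb*, serum albumin, than the others (67.3 and 28.3 FPKM against 0.246 to 15.4 FPKM), a gene looked up after its values were seen; the part of liver transcripts in these results was not tested. Of 17 monocyte and progenitor genes, 8 reached 2-fold, including *Chil3*, a chitinase-like protein (19.3 against 0 to 0.705), *Prtn3*, a primary granule protease (5.63 against 0 to 0.565), and *Cebpa*, a myeloid and liver transcription factor (6.07 against 1.23 to 2.96). *Ly6c1* and *Cebpb* had the highest means of that list and were 0.883 and 1.24 times the next library.

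The list of resident and scavenging macrophage genes was divided. Of its 20 genes 8 reached 2-fold, led by genes that are known for Kupffer cells or for macrophages of the spleen: *Cd5l*, a scavenger receptor-like protein (33.0 FPKM against 0.0886 to 0.749), *Clec4f*, a lectin of Kupffer cells (12.4 against 0 to 0.360), and *Vsig4*, a complement receptor (9.08 against 0 to 0.410). *Lpl*, lipoprotein lipase, was among the genes of highest mean and was 0.579 times the next library. The mannose receptor *Mrc1* was at 2.55 FPKM in Ctrl1, 0.731 and 1.87 FPKM in cKO2 and cKO3, and 0.142 to 0.295 FPKM in the rest. *Cd163*, the hemoglobin scavenger receptor, was at 0.987 and 0.982 FPKM in Ctrl1 and cKO3 and at 0.484 FPKM in cKO2, above the 0.0931 to 0.132 FPKM of the rest. For both genes cKO3 lay nearest to Ctrl1 and cKO2 next. *Mrc1* and *Cd163* were picked out after their values were seen. Of 22 cytokines and chemokines 8 reached 2-fold, with *Ccl6* (28.0 against 1.06 to 6.56) and the neutrophil-attracting *Cxcl2* (17.3 against 0.154 to 1.75) and *Cxcl1* (12.2 against 0.339 to 2.39), whereas *Arg1*, arginase 1, was lowest in Ctrl1 (11.4 against 16.1 to 19.9). Of 16 dendritic cell and antigen presentation genes 4 did, among them *H2-DMb1* (8.61 against 0.997 to 4.06), *H2-Oa* (1.96 against 0.0968 to 0.379) and *Ciita*, the class II transactivator (1.68 against 0.280 to 0.481), while *Bst2* and *H2-DMa* were 1.07 and 1.83 times the next library.

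Of 18 further B and plasma cell genes, 12 were at least 2-fold above the next library in Ctrl1. *Pou2af1*, a coactivator of B cells, was at 15.0 FPKM against 0.0748 to 0.889, *Mzb1*, a chaperone of antibody-secreting cells, at 14.4 against 1.33 to 2.93, and *Cd37*, a tetraspanin, at 11.0 against 0.144 to 1.10. *Jchain*, which joins IgA and IgM and marks plasma cells, was highest in cKO2 and cKO3, at 25.1 and 19.5 FPKM, with 18.9 FPKM in Ctrl1 and 7.5 to 11.0 FPKM in the rest. *Jchain* therefore did not follow *Ms4a1* or *Cd79b*. Of 23 further T cell genes 11 reached 2-fold, led by the receptor constant gene *Trbc2* (7.21 against 0.276 to 1.36), the kinase gene *Lck* (6.36 against 0.616 to 0.805) and *Trbc1* (3.37 against 0 to 1.25), and *Skap1* and *Thy1*, the highest of the list on average, did not (0.694 and 0.632 times). Of 14 further NK and cytotoxic genes 5 did, with *Ctsw*, cathepsin W (3.07 against 0.439 to 1.43), *Tbx21*, the factor T-bet (1.20 against 0 to 0.137), and *Klrb1c* (0.213 against 0 to 0.0934), and *Rora* was lower in Ctrl1 (1.73 against 2.66 to 3.37). Of 13 mast cell, basophil and eosinophil genes 8 reached 2-fold, with *Prg2*, the eosinophil major basic protein, at 11.1 against 0 to 1.03, *Cpa3*, a mast cell protease, at 1.74 against 0 to 0.152, and *Tpsb2*, a mast cell tryptase, at 1.27 FPKM and listed at 0 elsewhere. Against 3 reads in the other libraries *Tpsb2* was at least 7.21-fold higher in Ctrl1. *Gata2*, which is not restricted to these cells, was level (0.871 against 0.635 to 1.17).

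Red cell and dividing cell genes were also raised in Ctrl1, and their part in the result was not tested. They shared the second tier less: 5 of 13 erythroid and platelet genes and 4 of 22 proliferation genes were above Ctrl2, Ctrl3 and cKO1 in both cKO2 and cKO3. Of 13 erythroid and platelet genes 10 were at least 2-fold above the next library in Ctrl1, among them the globins *Hbb-bs* (598 FPKM against 86.6 to 115), *Hba-a1* (442 against 65.2 to 95.5) and *Hbb-bt* (94.2 against 17.4 to 20.9) by 4.50 to 5.20 times. The globin genes have near-identical copies, among which reads may have been divided. Of 22 proliferation genes, 22 were highest in Ctrl1 and 15 reached 2-fold, with *Hmgb2* at 18.2 against 3.87 to 5.73, *Mcm5* at 6.77 against 1.07 to 2.69 and *Mcm3* at 5.38 against 0.977 to 2.37, and with *Tubb5* and *Pcna* at 1.38 and 1.32 times. The defining genes of lymph node stroma *Ccl21a* and *Glycam1* were listed at 0 in all 6 libraries, while *Cxcl13*, which attracts B cells, was at 25.8 FPKM against 1.44 to 2.82, *Ltb* at 6.09 against 0.126 to 2.22 and *Lta* at 1.95 against 0 to 0.576. Summed over the lists, Ctrl1 was 5.05 times the next library for erythroid and platelet genes and 1.91 times for proliferation. For the list named lymph node stroma it was 7.36 times. That sum was mostly *Cxcl13*, *Ltb* and *Lta*, with *Ccl21a* and *Glycam1* at 0, and is no measure of lymph node stroma. The handling of reads that fit several gene copies is not given, so a listed 0 for *Ccl21a* need not mean absence. Whether lymph node tissue had a part in these values was not tested.

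Genes of the other pancreatic cells did not set Ctrl1 apart. None of 14 acinar, 10 duct, 12 endothelial, 12 stromal and 14 endocrine genes was at least 2-fold above the next library there. The summed acinar genes, such as *Ctrb1* and *Try4*, were at 20659 FPKM in Ctrl1 and 10594 to 47116 elsewhere, and the endocrine genes, mostly *Ins2* and *Ins1*, at 272464 against 226559 to 308561 FPKM. The duct genes *Tff2* and *Epcam* and the endothelial genes *Plvap* and *Kdr* were 0.324, 0.707, 0.714 and 0.812 times the next library. The stromal genes were higher in cKO2 and cKO3: *Dcn*, decorin, was at 11.7 and 15.2 FPKM there, 7.03 FPKM in Ctrl1 and 1.56 to 3.43 FPKM in the rest, 11 of the 12 stromal genes and 10 of the 12 endothelial ones were above Ctrl2, Ctrl3 and cKO1 in both libraries, and *Rgs5*, a pericyte gene, ranged from 18.6 to 37.7 FPKM. The stromal sum was at 95.9 and 83.9 FPKM in cKO2 and cKO3, 52.8 in Ctrl1 and 36.4 to 45.8 in the rest, in the same libraries as the second tier of leukocyte genes, and its part in that tier was not tested.

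**Figure D5:**
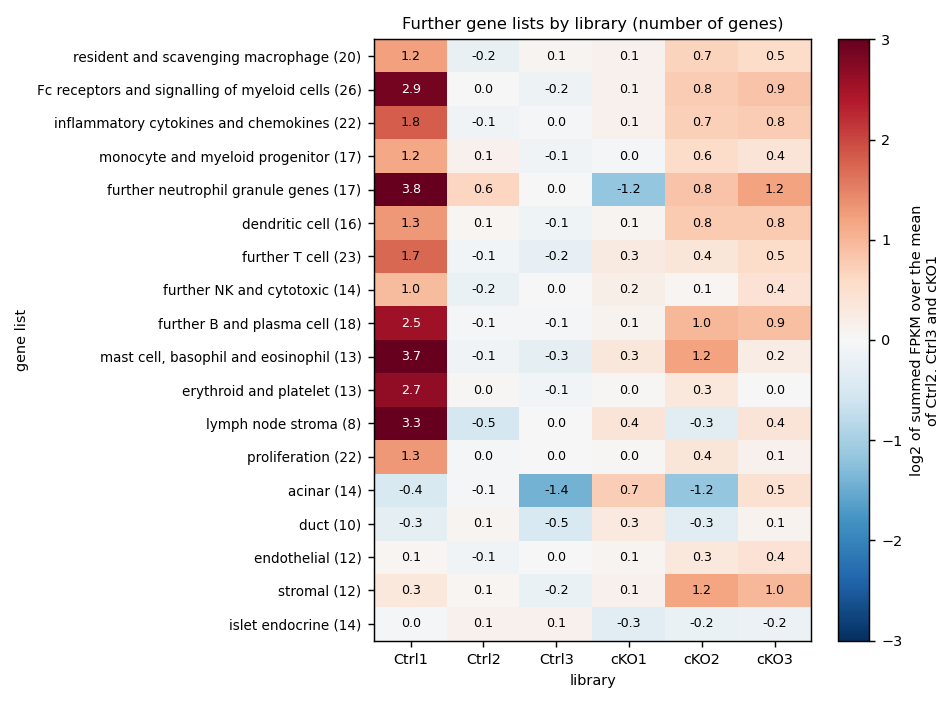
Summed FPKM of 18 further gene lists in each library, as log2 of the ratio to the mean of Ctrl2, Ctrl3 and cKO1; the number of genes is in parentheses. All leukocyte lists and the cytokine, erythroid, lymph node stroma and proliferation lists are highest in Ctrl1. The stromal list is highest in cKO2 and cKO3, and the endocrine list lies between -0.31 and 0.13 in all 6.

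Across all tested genes at 5 FPKM or more in Ctrl1, the 20 with the largest ratio to the next library ranged from 22.1 to 387 times, the highest of which rests on 1 read in the next library. Among them were 2 of the 47 genes, *Ms4a1* and *Ngp*, and 8 in any of the lists. Genes outside the 47 that are known for B cells were the transcription factor genes *Spib* (11.2 FPKM against at most 0.218) and *Mef2b* (12.2 against at most 0.246), *Rgs13* (7.2 against at most 0.145), *Fcamr*, a receptor of IgM (7.44 against at most 0.174), and *Tnfrsf13c*, the BAFF receptor (10.02 against at most 0.270). Genes known for macrophages were *Cd5l*, *Clec4f*, *Vsig4*, *Marco* (5.33 against at most 0.177), and the chemokine gene *Ccl24* (5.62 against at most 0.171), and *Chil3* and *Mcemp1* (5.68 against at most 0.241) are myeloid. Another was *Clec4g* (6.17 against at most 0.129), a lectin of sinusoidal endothelium in liver and lymph node. The acute-phase gene *Saa3* was at 36.9 FPKM in Ctrl1 and at 0.530 FPKM or less elsewhere, *Serpinb2* at 10.5 FPKM with 1 read in Ctrl2 and none in the others, the liver gene *Serpina1e* at 10.5 with at most 2 reads, *Prg4* at 9.32 against at most 0.349 and the antisense gene Gm15848 at 11.9 against at most 0.395 FPKM.

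The genes most like the mean log2(FPKM + 1) of the 6 pan-leukocyte genes over the 6 libraries, among genes outside the 47 with a mean of at least 1 FPKM, were led by *Basp1* (Pearson r of 0.998). With r between 0.993 and 0.997 followed *Nckap1l* and *Hcls1*, regulators of actin in blood cells, *Arpc1b*, *Chil3*, *Cd177*, a neutrophil surface protein, *Chil1*, *Ccdc88b* and *Fermt3*, the kindlin of blood cells, and 1 row without a gene name. The 6 points are dominated by Ctrl1, whose pan-leukocyte mean was 4.73 against 2.17 to 2.80, and over the 5 other libraries r was 0.887 to 0.974 for the same genes. The likeness is a description of these libraries and carries no test.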

How the data were processed

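RNA was extracted with TRIzol and sequenced from libraries of a SMARTER mRNA kit. The authors deposited FPKM per gene and sample, unlogged, with gene lengths, on GRCm38 per the submitters' processing notes (GRCm38, mm10). The aligner, the counter, the annotation release and the use of strand are not given in the sources used here. Reads were read back from FPKM, length and the step between values, and served depth, counting intervals and the voom alternative only. This gave whole numbers (tolerance 0.01) for 100% of the values above 0 and under 2000 reads, the range on which the step was fitted.

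The 47 genes, the gene lists and the rule for the genes named were chosen with earlier results of these data known. The rule names all 47, from each list up to 3 genes of highest Ctrl1 FPKM among those at least 2-fold above the next library and the 2 of highest mean, the 20 genes of largest ratio at 5 FPKM or more, and the 10 most like the pan-leukocyte mean. Some genes that the rule names are not reported here. *Alb*, *Mrc1*, *Cd163* and the immunoglobulin and liver genes were added after their values were seen. Of 47 members, 46 passed the filter of a mean of 0.1 FPKM.

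log2(FPKM + 1) was compared with limma 3.58.1 in R 4.3.3 (moderated by empirical Bayes with a mean trend, two-sided, adjusted over 21211 genes after Benjamini-Hochberg). On simulated data for this comparison with 21154 genes, 145 of 194 changed genes and 20 unchanged ones were called. The simulation used a single size of change, the same dispersion for all genes and no library that stood apart like Ctrl1. It checks that the fit runs properly and does not give the power of the real comparison. Fold changes on this scale understate changes of low genes. Intervals of ratios are exact (Clopper-Pearson, 95%). Nothing in the labels says how many animals a sample holds or gives a batch, so p-values measure the spread between samples. Exons of 9 members overlap another gene in GENCODE M21, by at most 15.1% of their bases apart from *Itgam*. Promoters come from RefSeq (GRCm38.p6).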

Additional observations from a re-analysis of the deposited data

How the results depend on the processing

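Leaving out Ctrl1 changed the genotype results most, and the genes had been chosen after being seen high in that library. The median difference of the 46 genes was -0.25 with all libraries, turned to 0.38 without Ctrl1, and ranged from -0.63 to 0.38 over the 6 fits that each leave out 1 library; members higher at an unadjusted p under 0.05 ranged from 0 to 5 and lower from 0 to 1. *Cd79a* was lost without cKO1 (-1.10) and without cKO2 (-1.18). Genes called over the whole table, 0 with all libraries (1570 at an unadjusted p under 0.05), ranged from 0 to 1 in these fits and numbered 2 with voom on reads (1828 unadjusted). With Ctrl1 left out, differences turned for *Adgre1*, *Retnlg* and *Cd4*, which ranged from -0.89 to 0.51, from -1.45 to 1.37 and from -0.17 to 0.27 over the fits that leave out 1 library. *Retnlg* and *Cd4* also turned with a pseudocount of 0.1 (0.67 and 0.29), without cKO1 (0.00088 and 0.048) and with voom (1.08 and 0.73), and the cause was not tested. A replicate block left the median at -0.25 with 1 member lower, 0 higher and 0 genes called. Same-numbered samples are different animals, and their deviations correlated at -0.171, -0.0219 and -0.0652. Pairs of unlike number lay between -0.0775 and 0.130. With 3 samples per group these values cannot settle whether the numbers pair samples, and the labels state no pairing. The count of 31 members at least 2-fold higher in Ctrl1 was 38 at 1.5-fold, 24 at 3-fold, and 31 with median-of-ratios scaling and with 0.1 added. The factors of that scaling lay between 0.994 and 1.015, so it could change little. The 32 members higher in cKO2 and cKO3 were 33 after that scaling, an alternative chosen after seeing the data. Orders of libraries that rest on fewer than 10 reads are uncertain.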

Other observations

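Immunoglobulin transcripts, looked at after the B cell values had been seen, differed from each other in their order of libraries. *Ighm*, the constant region of IgM, was at 23.8 FPKM in Ctrl1 and at 27.6 FPKM in Ctrl3, where *Ms4a1* was at 0.155 FPKM, with 1.82 FPKM in Ctrl2 and 14.8, 4.21 and 8.36 FPKM in cKO1, cKO2 and cKO3. *Igkc*, the κ light chain constant region, was at 283 FPKM in Ctrl1, 230 and 231 FPKM in cKO2 and cKO3 and 70.4 to 127 FPKM in the others, which is the order of the MHC class II genes. *Ighd*, the IgD constant region of naive B cells, was at 3.29 FPKM in Ctrl1 and 0.10 to 1.25 FPKM elsewhere, so that Ctrl1 was highest, as for *Ms4a1*.

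Transcripts of liver proteins were looked at in the same way. *Apoa1*, an apolipoprotein, was at 11.4 and 15.6 FPKM in Ctrl1 and Ctrl2 and 0.0931 to 2.06 FPKM elsewhere. *Mup3*, a major urinary protein, was at 8.37 and 7.32 FPKM in Ctrl1 and Ctrl2 and at most 0.259 FPKM elsewhere. Ctrl2 was also next to Ctrl1 for *Clec4f*, at 0.360 FPKM, and for *Cd5l*, at 0.749 FPKM, far below the 12.4 and 33.0 FPKM of Ctrl1.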
